A study of Mus musculus with 12 samples.

Results

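The 44 genes described here encode the machinery that copies nuclear DNA, the enzymes that make its dNTP building blocks, and the cyclins and E2F factors that switch both on at the start of S phase. They were chosen by gene symbol from a written list, and all 44 were found among the 55415 entries of the expression table. The list was written with earlier results of these data known. All 44 also passed the expression filter (at least 1 FPKM, the authors' count per length and depth, in at least 3 libraries), which left 13668 entries to test. By role the genes comprised 11 of origin licensing, 7 of origin firing, 15 of the replication fork, 5 of dNTP synthesis, and 6 cyclins and regulators.

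The libraries came from tumours of CT26 in mice. The CT26 line derives from a chemically induced colon carcinoma of the BALB/c strain, and the labels list the cells as WT. There were 4 groups of 3 libraries: tumours left untreated (control), treated with Complex 1, treated with Radiation, and treated with Complex 1 and Radiation (the combination). The series title speaks of a platinum complex activated by X-rays. The strain, sex and age of the host mice, the doses, the times and the irradiated field were not given in the sources used here. The labels name no allele or agent that all groups share beyond the tumour line. Nothing in the labels says that each library came from a separate mouse, so p-values measure the spread between these libraries, which may be technical.

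The libraries held 15601468 to 19112042 counts, and the least covered of the 44 genes had 90 counts in its lowest library. Markers of carcinoma cells were a weak check of the tissue label, since 1 of 7 (Krt18) passed the filter, while Krt8, Krt7, Krt19, Epcam and Cldn7 stayed under 1 FPKM in every library and none of the 7 was at 0 throughout. The library of control replicate 2 held 0.02 FPKM of Xist and 28 counts of 4 Y-linked genes, whereas Xist reached 9.20 to 14.2 FPKM, and those Y-linked genes no more than 1 count, in each of the others. Complex 1 replicate 3 and radiation replicate 2 departed from their groups in the summed T cell markers (39.1 FPKM against 16.1 and 19.4, and 10 FPKM against 36.1 and 34.5). Results are therefore also given without these 3 libraries.

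Before a cell can copy its DNA, the origin recognition complex, CDC6 and CDT1 load the ring-shaped MCM2-7 helicase on origins, a step called licensing, which geminin holds back outside G1. Kinases and the factors CDC45 and GINS then switch the helicase on, and polymerases run behind it on the sliding clamp PCNA while ribonucleotide reductase and its partner enzymes supply dNTPs. E2F factors drive transcription of many of these genes as cells leave G1, and the level of the whole set in a tissue is widely used as a sign of how many cells are in cycle. In bulk tumour RNA, fewer cycling cells and less RNA per cycling cell cannot be told apart.

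Some of the promoter sequences hold E2F letters, and most of those found do not. Of the 44 genes, 35 had a promoter in the RefSeq table (GRCm38.p6, 250 bases before to 50 after the start), and those of Pole, Gins1, Gins2, Gins4, Ccne2, Ccna2, Gmnn, Rfc2 and Mcm4 are not shown. The E2F letters were searched on both strands in the forms TTTCCCGC, TTTGGCGC, TTTCGCGC and TTTGCCGC, which can overlap one another in a palindrome. Counted by gene, they stood in 13 of 35 (37.1%), against 2.6% of all 27025 genes with a promoter and 4.74% of 9325 tested genes. The 44 genes were chosen around S phase, so this higher share is no independent result. CCAAT on either strand, the letters bound by NF-Y, stood in 60% of the 35 and in 43.3% of the tested genes. Each E2F match that lay before the start is given here with up to 26 bases on either side, on the strand of the gene. Capitals mark the match.

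Cdc6, chr11:98907987-98908046, plus strand: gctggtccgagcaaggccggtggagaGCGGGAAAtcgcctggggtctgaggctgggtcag
Mcm5, chr8:75109330-75109393, plus strand: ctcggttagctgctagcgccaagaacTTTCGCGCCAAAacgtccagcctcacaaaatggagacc
Mcm6, chr1:128359778-128359841, minus strand: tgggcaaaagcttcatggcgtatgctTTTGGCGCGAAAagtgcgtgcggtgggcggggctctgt
Mcm6, chr1:128359719-128359778, minus strand: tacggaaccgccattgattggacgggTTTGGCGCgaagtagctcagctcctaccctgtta
Mcm7, chr5:138172015-138172074, minus strand: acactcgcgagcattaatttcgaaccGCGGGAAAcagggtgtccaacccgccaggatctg
Gins3, chr8:95633492-95633551, plus strand: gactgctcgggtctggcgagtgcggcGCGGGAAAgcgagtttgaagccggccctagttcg
Pola1, chrX:93632260-93632319, minus strand: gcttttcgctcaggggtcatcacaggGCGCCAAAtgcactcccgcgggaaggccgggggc
Uhrf1, chr17:56304102-56304161, plus strand: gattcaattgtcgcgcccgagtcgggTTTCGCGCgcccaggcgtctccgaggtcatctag
Orc1, chr4:108579401-108579453, plus strand: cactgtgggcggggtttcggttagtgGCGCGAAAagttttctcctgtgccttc
Rfc3, chr5:151651209-151651244, minus strand: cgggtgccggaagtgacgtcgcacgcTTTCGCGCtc

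In Mcm5 and in the first Mcm6 sequence, matches on both strands overlap and form 1 run of 12 bases. In Cdt1, Mcm3, Pold1 and Lig1 every match lay after the start, and Mcm7 and Rfc3 each hold a further match at or after it. Those sequences are not printed. By the response to radiation, the letters stood in 11 of 30 matched genes that fell (36.7%) and in 2 of 5 that were not called, Orc1 and Rfc3 (40%). These are matches of letters, not measured binding.

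The irradiated tumours held less RNA of most of these genes. Since the list was written with earlier results known, its shares beside those of all genes are descriptive and no independent test. Comparing the 6 irradiated libraries (radiation and combination) with the 6 that were not irradiated (control and Complex 1), 35 of 44 genes fell (79.5%) at an adjusted p under 0.05 and 0 rose, while 13.2% of all tested genes fell and 13.3% rose. The test was edgeR's quasi-likelihood test on counts with Benjamini-Hochberg adjustment over the 13668 genes, and each difference is given as a log2 change with its standard error (SE). The shift was shallow and broad: the 44 log2 changes ran from -0.58 to -0.074, all below 0, with a median of -0.285 against -0.005 over all tested genes. In 18 of 44 genes every irradiated library lay below every other library in normalised log2 CPM (counts scaled to a common depth), a separation found in 5.08% of all tested genes. Those 18 were Cdt1, Mcm2, Mcm4, Mcm7, Cdc45, Pcna, Rfc1, Pola1, Pold1, Pole, Rrm2, Tk1, Dut, Ccne2, Ccna2, E2f1, E2f8 and Uhrf1. Without the 3 libraries that departed, 29 of 44 fell, and the median was -0.27.

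**Figure D1:**
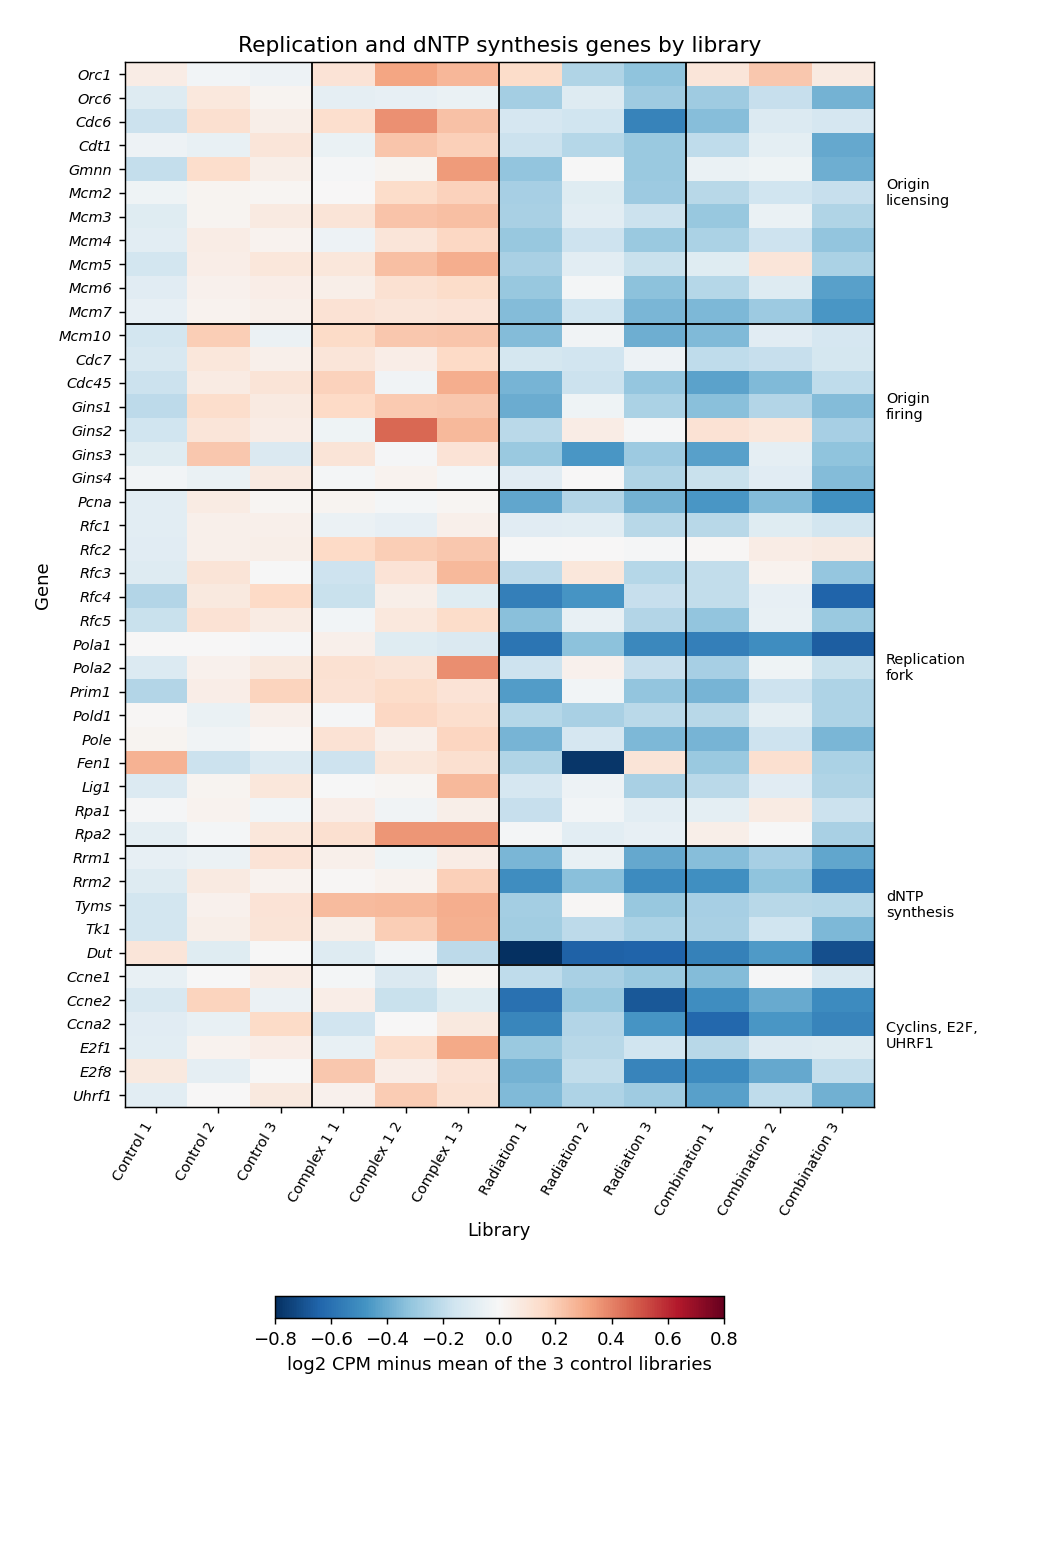
Heat map of the 44 genes (rows, by role) in the 12 libraries (columns, by group and replicate). Colour is log2 CPM minus the mean of the 3 control libraries, blue below and red above. The 6 irradiated columns on the right are mostly blue, and radiation replicate 2 and combination replicate 2, with gene medians of -0.145 and -0.107, are the palest of them.

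Origin licensing genes fell in 9 of 11 cases, with a median log2 change of -0.28. Against control alone, Mcm3, Mcm5 and Mcm6 were called neither with radiation nor with both. There Mcm5 was at -0.18 ± 0.094 with radiation and -0.079 ± 0.094 with both (adjusted p = 0.24 and 0.60). Over the 6 irradiated libraries against the 6 others, all 6 subunits of the MCM2-7 helicase fell, within the narrow range of -0.38 to -0.23. The smallest p-value belonged to Mcm7 (chr5:138162845-138170684, minus strand, mm39), a subunit of the ring, which was at 47.9, 50.9 and 51.9 in control, 55.1, 55.3 and 54.8 with Complex 1, 40.1, 46.03 and 39.7 with radiation and 40.2, 42.5 and 37.8 with both (FPKM, replicates 1 to 3). No irradiated library reached the lowest of the others, and the difference was -0.38 ± 0.049 (adjusted p = 0.00019), a fall of 23.3%. Mcm4 (chr16:15441761-15455264, minus strand) was at 33.4, 36.7 and 36.3 in control, 34.98, 39 and 40.2 with Complex 1, 29.2, 32.3 and 29.3 with radiation and 30.5, 32.7 and 29.4 with both, in FPKM. The groups did not overlap, and Mcm4 fell by 18.1% (-0.29 ± 0.051, adjusted p = 0.0013). For Mcm2 (chr6:88860456-88875762, minus strand) the FPKM were 22.7, 23.6 and 23.6 in control, 23.7, 26.6 and 26.8 with Complex 1, 19.7, 22.2 and 19.4 with radiation and 20.5, 21.6 and 21.2 with both. Here too the irradiated libraries lay lower without overlap, by 16.5% (-0.26 ± 0.047, adjusted p = 0.0017).

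The other ring subunits changed by -0.28 (Mcm3), -0.23 (Mcm5) and -0.28 (Mcm6), the last with 2 separate E2F matches before its start. The loading factors also fell: Cdc6, which brings the ring to origin-bound complexes, by 21.8% (-0.35 ± 0.086, adjusted p = 0.0087), and Cdt1, the partner that carries the ring, by 18.3% (-0.29 ± 0.065, adjusted p = 0.0056). Orc6, a small subunit of the origin recognition complex, fell by 14% (-0.22 ± 0.054, adjusted p = 0.0096). The licensing genes that missed the threshold were Gmnn, which encodes geminin, the inhibitor of CDT1 (-0.24 ± 0.094, adjusted p = 0.075), and Orc1, the largest origin recognition subunit. Orc1 was the lowest of all 44 genes at a mean of 2.57 FPKM, with 2.51, 2.36 and 2.35 in control, 2.63, 3.10 and 2.93 with Complex 1, 2.71, 2.08 and 1.96 with radiation and 2.65, 2.90 and 2.62 with both, in FPKM. The groups overlapped, with radiation replicate 1 above all 3 controls, and the difference was -0.12 ± 0.097 (adjusted p = 0.42).

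Some counts in the licensing group may be shared with other genes. In the GENCODE M21 transcripts, 33.4% of the 31-base words of Mcm7 also occur in another gene, chiefly Gm5487. Here and below, "chiefly" names the gene with the most occurrences of such words, counted over all its transcripts. Mcm7 further overlaps the expressed genes Cops6 and Ap4m1 on the other strand, and Orc6 overlaps Vps35. The strand setting of the counting was not given, so reads from such antisense pairs cannot be told apart.

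Among the 7 origin firing genes, 5 fell, with a group median of -0.32. Cdc45 (chr16:18599197-18630737, minus strand), the helicase cofactor that joins MCM2-7 at activated origins, was at 13.1, 15.4 and 15.9 in control, 16.99, 14.9 and 18.2 with Complex 1, 11.6, 13.4 and 12.2 with radiation and 11.3, 11.99 and 13.3 with both, in FPKM. The highest irradiated value came just above control replicate 1 on this scale and below the other 5, and Cdc45 fell by 23.2% (-0.38 ± 0.071, adjusted p = 0.0018). Gins1 (chr2:150747320-150773200, plus strand), a subunit of the GINS ring that completes the active helicase, was at 8.78, 11.2 and 10.8 in control, 11.5, 12.1 and 11.97 with Complex 1, 7.87, 10.2 and 8.71 with radiation and 8.28, 8.99 and 8.29 with both, in FPKM. Control replicate 1 lay among the irradiated libraries, and radiation replicate 2 was the highest of the latter. The difference for Gins1 was -0.36 ± 0.083 (adjusted p = 0.0065), a fall of 22.3%.

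Mcm10 (chr2:4994525-5017602, minus strand), a scaffold that helps the helicase start to unwind DNA, was at 4.65, 5.89 and 5.02 in control, 5.84, 6.17 and 6.08 with Complex 1, 4.12, 5.18 and 4.01 with radiation and 4.15, 5.02 and 4.87 with both, in FPKM. It fell by 19.9% (-0.32 ± 0.079, adjusted p = 0.0099), with control replicates 1 and 3 among the irradiated values. Cdc7, the kinase that phosphorylates MCM subunits to fire origins, fell by 12.7% (-0.20 ± 0.050, adjusted p = 0.012). The 4 GINS subunits, which form 1 complex, divided at the threshold: Gins3 fell as well (-0.35 ± 0.088, adjusted p = 0.010), whereas Gins2 (-0.15 ± 0.096, adjusted p = 0.26) and Gins4 (-0.15 ± 0.061, adjusted p = 0.076) were not called. Whether the subunits differ from one another was not tested. Counts of Gins2 are uncertain, since 66.2% of its 31-base words occur also in another gene and the expressed gene Gse1 overlaps it on the other strand. Cdc45 overlaps Ufd1 in the same way.

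Of the 15 replication fork genes, 10 fell, with a median of -0.23, and the spread within the group was wide. Pola1 (chrX:92348373-92675761, minus strand), the catalytic subunit of the polymerase alpha-primase that starts each new strand, was at 11.4, 11.3 and 11.3 in control, 11.9, 10.9 and 10.6 with Complex 1, 7.68, 9.24 and 8.09 with radiation and 7.96, 8.32 and 7.44 with both, in FPKM. The 3 control values were nearly identical and every irradiated library was lower. Pola1 fell by 29% (-0.49 ± 0.053, adjusted p = 6.3e-05). It lies on the X chromosome, and control replicate 2, the library with little Xist, held the same level as the other controls.

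Pcna (chr2:132091082-132095234, minus strand), the sliding clamp, was the most abundant of the 44 transcripts at every treatment, with 126, 139 and 136 in control, 137, 136 and 137 with Complex 1, 102, 116 and 104 with radiation and 99.3, 109 and 98.9 with both, in FPKM. The irradiated libraries lay lower without overlap, and Pcna fell by 23.7% (-0.39 ± 0.048, adjusted p = 0.00015). Of its 31-base words, 23.3% are shared, chiefly with the pseudogene Pcna-ps2. Pole (chr5:110434172-110485340, plus strand), the catalytic subunit of leading strand polymerase epsilon, was at 8.49, 8.18 and 8.47 in control, 9.21, 8.89 and 9.56 with Complex 1, 6.59, 7.80 and 6.66 with radiation and 6.66, 7.75 and 6.74 with both, in FPKM. It fell by 21.3% without overlap between the groups (-0.35 ± 0.055, adjusted p = 0.00063).

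The remaining polymerase genes had changes nearer to 0 than Pola1. Pola2, the accessory subunit of polymerase alpha, changed by -0.23 ± 0.066 (adjusted p = 0.019), Prim1, the primase that lays the RNA primer, by -0.32 ± 0.081 (adjusted p = 0.011), and Pold1, the catalytic subunit of lagging strand polymerase delta, by -0.26 ± 0.046 (adjusted p = 0.0015), and all 3 fell. Lig1, the ligase that seals Okazaki fragments, fell by 13.6% (-0.21 ± 0.061, adjusted p = 0.022). Fen1, the nuclease that trims those fragments, was -0.21 ± 0.15 (adjusted p = 0.32) with the widest error of the 44, and 79.6% of its 31-base words occur in another gene, chiefly Gm10143. Its level is therefore uncertain. Fen1, Lig1, Pold1 and Pole overlap the expressed genes Tmem258, Zswim9, Gm44833 and Gm15792 on the other strand.

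Several clamp loader and single-strand binding genes lay close to 0. Of the 5 replication factor C subunits, which open PCNA and place it on DNA, Rfc1 (-0.13 ± 0.045, adjusted p = 0.048) and Rfc5 (-0.25 ± 0.070, adjusted p = 0.019) fell. Rfc2 (-0.074 ± 0.040), Rfc3 (-0.17 ± 0.085) and Rfc4 (-0.31 ± 0.11) did not pass, with adjusted p of 0.19, 0.16 and 0.053. Rpa2, a subunit of the protein that coats single-stranded DNA, fell (-0.20 ± 0.066, adjusted p = 0.036), while its large partner Rpa1 was -0.090 ± 0.048 (adjusted p = 0.19). Against control alone, Rpa2 was not called with radiation (-0.057 ± 0.093, adjusted p = 0.74) or with both (-0.070 ± 0.093, adjusted p = 0.64). Mean FPKM of Rpa2 was 10.8 in control, 13.4 with Complex 1, 10.6 with radiation and 10.7 with both. In FPKM, Rpa1 was at 22.3, 22.8 and 22.2 in control, 23.6, 22.8 and 23.4 with Complex 1, 20.1, 22.6 and 21.6 with radiation and 21.8, 24.4 and 20.6 with both, so that the groups overlapped. Rfc2, Rfc4 and Rfc5 overlap the expressed genes Lat2, Eif4a2 and Wsb2 on the other strand. Of their sequence words, 19.4%, 10.5% and 19.3% occur in another gene, chiefly the same partner, so their levels are less certain.

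All 5 dNTP synthesis genes fell, with a median of -0.35. Dut (chr2:125089110-125100528, plus strand), the dUTPase that keeps uracil out of DNA and makes the precursor of dTMP, showed the most negative change of the 44. Its FPKM were 34.2, 29.8 and 32.1 in control, 30.2, 32.5 and 27.96 with Complex 1, 18.1, 20.9 and 20.9 with radiation and 22.6, 24.3 and 20.4 with both. Every irradiated library was below every other library, and Dut fell by 33.2% (-0.58 ± 0.061, adjusted p = 5.7e-05). Rrm2 (chr12:24758240-24764145, plus strand), the S phase small subunit of ribonucleotide reductase, was at 55.3, 62.2 and 60.7 in control, 60.7, 62.3 and 68.5 with Complex 1, 42.8, 48.2 and 42.7 with radiation and 43.3, 49.2 and 42.1 with both, in FPKM. Without overlap, Rrm2 fell by 28.6% (-0.49 ± 0.057, adjusted p = 0.00011).

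Tk1 (chr11:117706352-117716918, minus strand), the cytosolic thymidine kinase that salvages thymidine, was at 12.1, 13.8 and 14.5 in control, 14.1, 15.9 and 16.6 with Complex 1, 11.3, 11.9 and 11.5 with radiation and 11.5, 12.5 and 10.9 with both, in FPKM. It fell by 21.3% (-0.34 ± 0.058, adjusted p = 0.00098), although combination replicate 2 exceeded control replicate 1 in FPKM. Tk1 overlaps the expressed gene Afmid on the other strand. Rrm1, the large reductase subunit, fell by 19.7% (-0.32 ± 0.063, adjusted p = 0.0028), and Tyms, the thymidylate synthase that makes dTMP, by 21.4% (-0.35 ± 0.063, adjusted p = 0.0015).

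All 6 cyclin, E2F and UHRF1 genes fell too, with a median of -0.40. Uhrf1 (chr17:56610321-56630486, plus strand), which brings the maintenance DNA methyltransferase to newly copied DNA, was at 40.9, 43.4 and 46.1 in control, 45.2, 51.6 and 47.9 with Complex 1, 34.5, 37.4 and 36.4 with radiation and 32.96, 39.2 and 34.5 with both, in FPKM. The groups did not overlap, and Uhrf1 fell by 23% (-0.38 ± 0.053, adjusted p = 0.00032). Of its 31-base words, 24.2% occur in another gene, chiefly Gm5648. Ccna2 (chr3:36619014-36626299, minus strand), the cyclin A that partners CDK2 in S phase and CDK1 later, was at 40.9, 41.7 and 48.7 in control, 39.8, 45.2 and 46.6 with Complex 1, 30.8, 37.9 and 32.04 with radiation and 28.9, 32.8 and 31.3 with both, in FPKM. Again without overlap, Ccna2 fell by 27.5% (-0.47 ± 0.066, adjusted p = 0.00034). E2f8 (chr7:48516177-48531344, minus strand), a repressor E2F that is itself induced in S phase, was at 21.4, 19.2 and 20.3 in control, 23.9, 21.7 and 22.1 with Complex 1, 15.9, 18.1 and 14.3 with radiation and 14.7, 15.8 and 18.4 with both, in FPKM. It fell by 25.5% (-0.42 ± 0.067, adjusted p = 0.00063).

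The cyclin E pair, which partners CDK2 at the G1/S border, fell in both members: Ccne2 by 27.4% (-0.46 ± 0.076, adjusted p = 0.00083) and Ccne1 by 12.1% (-0.19 ± 0.061, adjusted p = 0.039). E2f1, an activator E2F, fell by 16% (-0.25 ± 0.060, adjusted p = 0.0079). Ccna2 and Ccne2 overlap the expressed genes Exosc9 and Ints8 on the other strand.

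**Figure D2:**
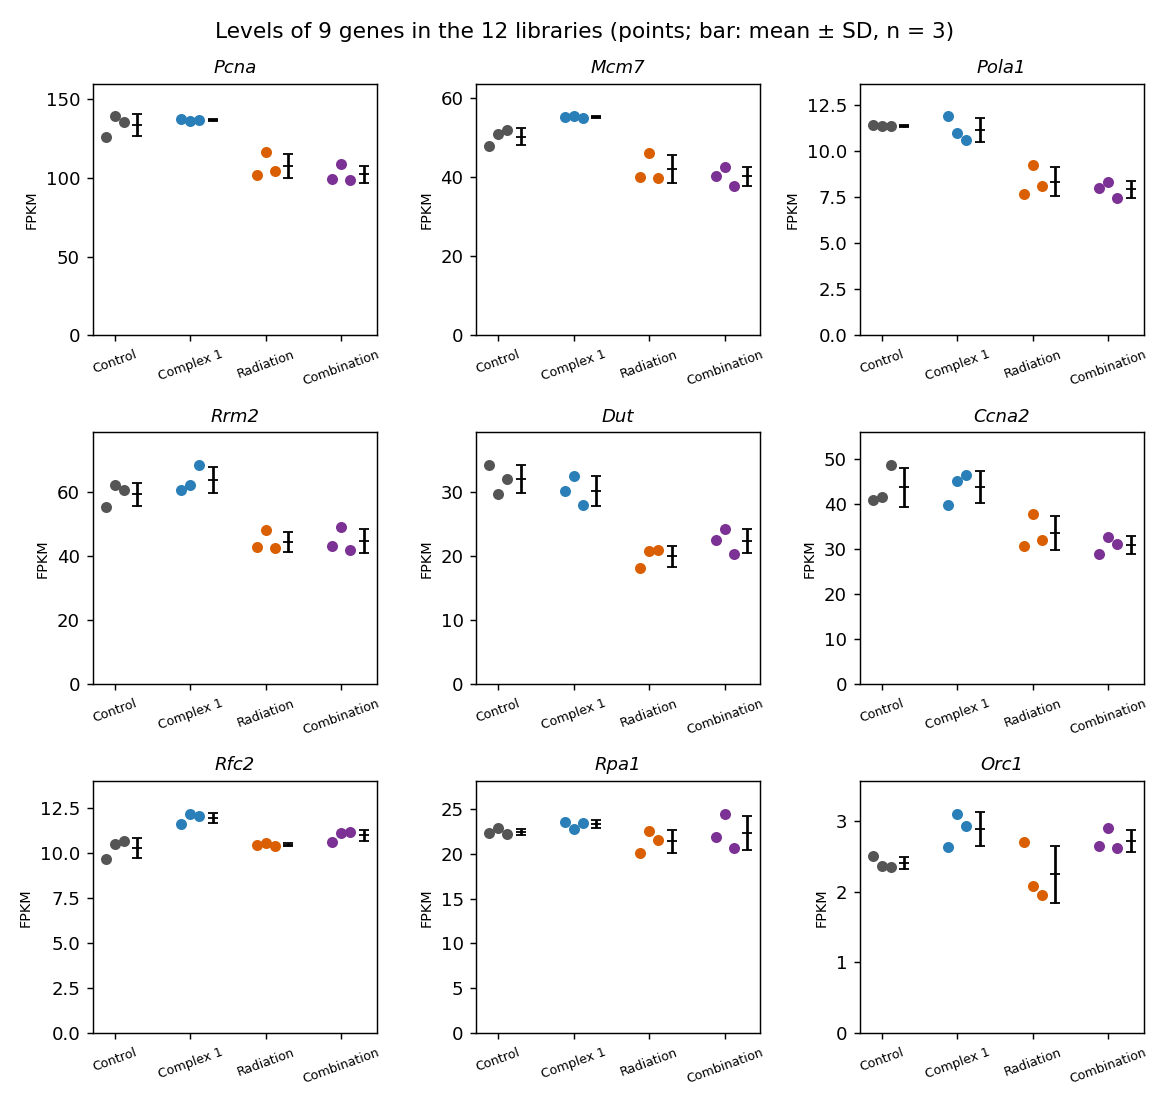
Levels in FPKM of 9 genes, with 1 point per library in each of the 4 groups and a bar for the mean ± SD (n = 3), all axes from 0. Pcna, Mcm7, Pola1, Rrm2, Dut and Ccna2 sit lower in both irradiated groups without overlap, whereas Rfc2, Rpa1 and Orc1, which were not called, overlap.

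Calls in the 35 genes differed in how well they withstood other settings. Over 20 alternatives of the test (other scalings, filters and tools, and each library left out), all 44 genes kept a change below 0, and 26 of the 35 were called every time. Rfc1 was called in 3 of 20, Ccne1 in 6, Rpa2 in 7 and Mcm5 in 12, so these 4 calls are the least firm. Lig1, Rfc5, Pola2, Cdc7 and Gins3 were called in 14, 16, 17, 19 and 19.

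Radiation alone and radiation given with Complex 1 were each compared with their own unirradiated group, and these comparisons share no library. Both came from the same fit, however, which shares the scaling and the spread of each gene. Their lists of calls are therefore not independent. Radiation alone lowered 13 of 44 genes (29.5%) and raised 0, where 5.85% of all tested genes fell and 7.39% rose. The 13 were Mcm2, Mcm4, Mcm7, Pcna, Pola1, Pold1, Pole, Rrm2, Dut, Ccne2, Ccna2, E2f8 and Uhrf1. With Complex 1 present, radiation lowered 26 of 44 genes (59.1%) and raised 0, where 5.25% of all tested genes fell and 4.73% rose. All 13 of the first comparison were among the 26 of the second, which is 100% of one list and 50% of the other. The median log2 change was -0.23 without Complex 1 and -0.35 with it. The 3 radiation libraries lay below the 3 controls in 21 genes (15.0% of all tested genes), and the 3 combination libraries below the 3 of Complex 1 in 36 (16.6%).

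**Figure D3:**
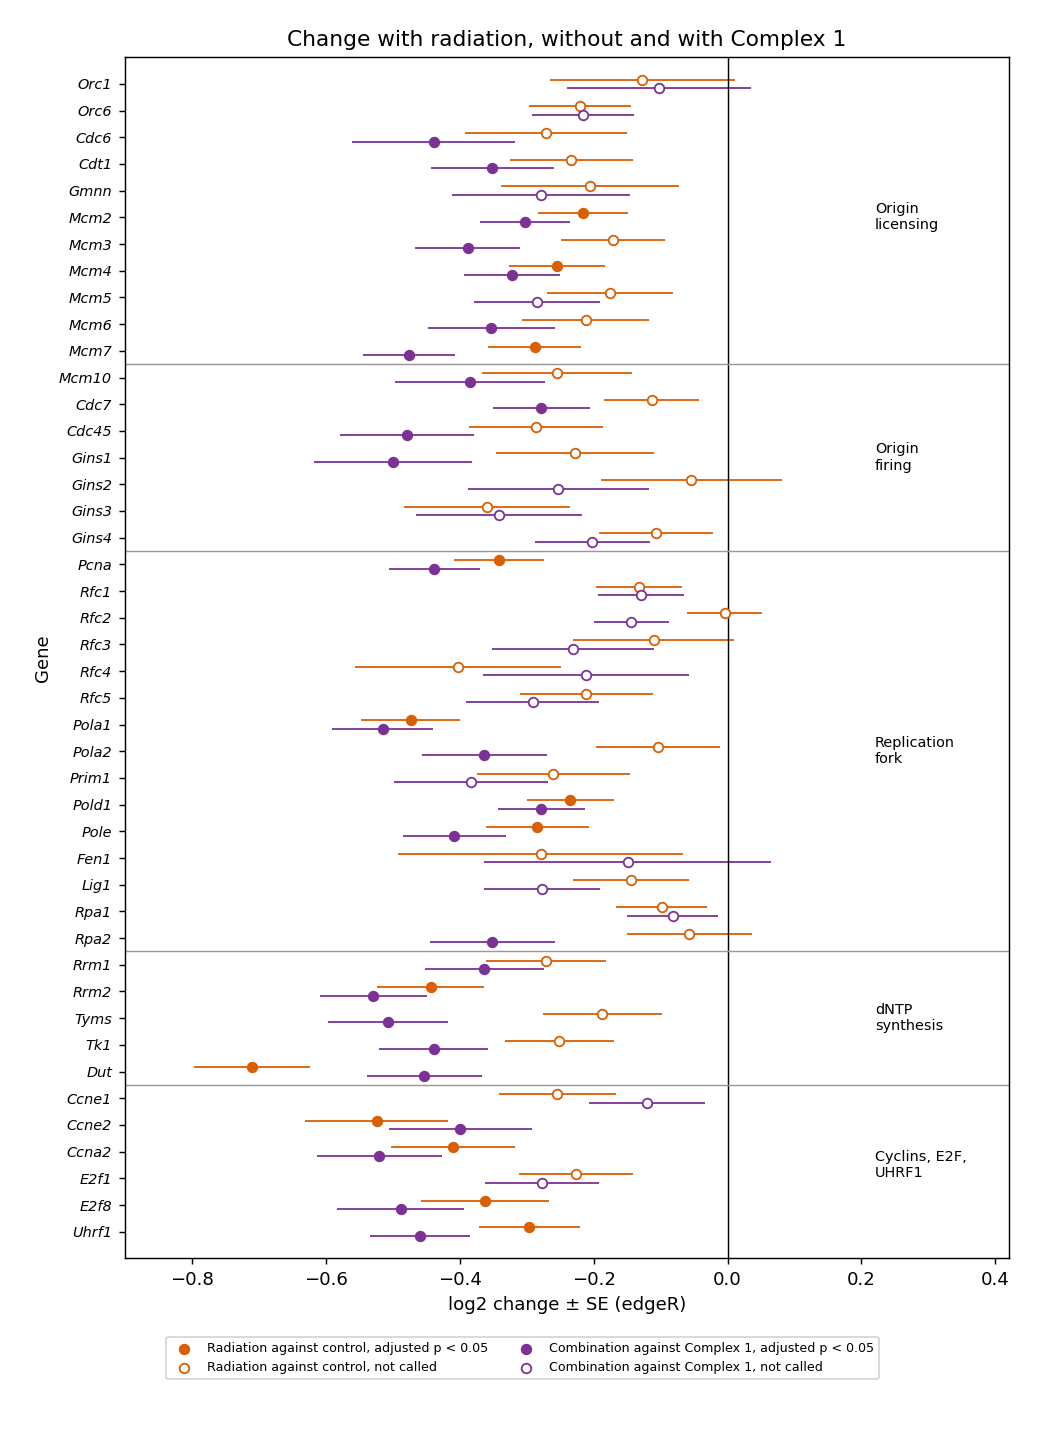
Log2 change ± SE of each gene with radiation alone against control (orange) and with radiation added to Complex 1 (purple), from edgeR. Filled points passed an adjusted p of 0.05. All points lie below 0, and Dut, at -0.71 without Complex 1, lies farthest to the left.

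The number of calls depended on single libraries. Without radiation replicate 1 or radiation replicate 3, radiation alone lowered 5 genes, without control replicate 2 or control replicate 3 it lowered 7, and without radiation replicate 2 it lowered 18. With Complex 1 present, the count was 13 without combination replicate 1, 14 without combination replicate 3 and 14 without Complex 1 replicate 2. Without the 3 libraries that departed, the counts were 11 and 22. Scaling by library totals gave 10 and 25 genes, and then 4.21% and 4.54% of all tested genes fell.

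Dut stood at the far end of the set without Complex 1, with -0.71 ± 0.086 (adjusted p = 0.00066), but not with it. With Complex 1 present, Rrm2 lay farthest below 0 at -0.53 ± 0.080 (adjusted p = 0.0024), and Dut was at -0.45 ± 0.086 (adjusted p = 0.0065). Tyms did the opposite in value, with -0.19 ± 0.089 (adjusted p = 0.19) and -0.51 ± 0.089 (adjusted p = 0.0045). Neither gene passed the interaction test, where Dut was at 0.26 ± 0.12 and Tyms at -0.32 ± 0.12, both with an adjusted p of 1.0.

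Combined treatment against untreated tumours lowered 15 of 44 genes (34.1%) and raised 0, where 10% of all tested genes fell and 11.9% rose. This comparison shares its controls with that of radiation alone. Without combination replicate 1 the count was 9, without combination replicate 3 it was 10, and without the 3 libraries that departed it was 11. The median was -0.23, and the 3 combination libraries lay below the 3 controls in 25 genes, a separation seen in 19.1% of all tested genes. Pola1 was at -0.57 ± 0.074, Rrm2 at -0.45 ± 0.080 and Pcna at -0.43 ± 0.067, with adjusted p of 0.00029, 0.0018 and 0.00083.

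Complex 1 alone did not lower these genes detectably. Against control, edgeR called 0 of 44 genes in either direction (0.0951% of all tested genes fell and 0.717% rose), DESeq2 and limma also called 0, and 6 of 44 had an unadjusted p under 0.05, near the background of 1708 of 13668 over all genes. The values leaned upward, with 35 of 44 above 0 and a median of 0.10 against 0.008 over all tested genes. The 3 libraries of Complex 1 lay above the 3 controls in 10 genes (9.39% of all tested genes). Rfc2 had the smallest p, with a difference of 0.19 ± 0.056 (adjusted p = 0.16). Its FPKM were 9.67, 10.5 and 10.7 in control and 11.6, 12.2 and 12.1 with Complex 1, which do not overlap. Counts of Rfc2 are uncertain, since 19.4% of its sequence words occur in another gene, chiefly Lat2, which overlaps it on the other strand. Whether reads of Lat2 enter this difference was not tested.

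Complex 1 added to radiation gave a similar absence of calls. Between the combination and radiation alone, edgeR called 0 of 44 genes (0.0366% of all tested genes fell and 0.615% rose), as did DESeq2 and limma, and 0 had an unadjusted p under 0.05, beside 1411 of 13668 over all genes. The median was -0.011, with 25 genes below 0 and 19 above, and its sign turned to 0.053 without radiation replicate 2. Orc1 had the smallest p, with 2.71, 2.08 and 1.96 FPKM in radiation and 2.65, 2.90 and 2.62 in the combination, which overlap (0.26 ± 0.14, adjusted p = 0.55). The summed FPKM of the 44 genes was 854 ± 55.9 with radiation and 855 ± 56.2 with both treatments (SD, n = 3), against 1010 ± 50.7 in control and 1084 ± 39.7 with Complex 1. A p over the threshold does not show that the groups are equal: the SE of the 44 differences sets what 3 libraries a group could detect, for example ± 0.067 for Pcna and ± 0.14 for Orc1.

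An interaction, the difference between the effect of radiation with and without Complex 1, was called by edgeR for 0 of 44 genes, and for 0% of all tested genes, and by DESeq2 and limma for 0 as well. Of the 44, 2 had an unadjusted p under 0.05, beside 601 of 13668 over all genes. The median was -0.11, and -0.015 without the 3 libraries that departed. Tyms had the smallest p (-0.32 ± 0.12, adjusted p = 1.0), with 6.63, 7.50 and 7.97 in control, 8.88, 9.07 and 9.11 with Complex 1, 6.18, 7.55 and 6.05 with radiation and 6.28, 6.54 and 6.50 with both, in FPKM. Its 3 values with Complex 1 alone were above those of every other library. The larger count of calls with Complex 1 present is thus not shown to be a larger effect.

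Other genes of the same pathway, 72 matched of 73 written, were tested in the same fit. In the irradiated libraries 43 of 72 fell and 3 rose, with a median of -0.24. Of the licensing genes outside the 44, 2 of 7 fell: Mcm8, a paralogue that acts in repair of crosslinks (-0.47 ± 0.096, adjusted p = 0.0030), and Orc2, an origin recognition subunit (-0.17 ± 0.057, adjusted p = 0.041). Firing genes fell in 9 of 11 cases, among them Ticrr, which helps load CDC45 (-0.44 ± 0.058, adjusted p = 0.00022), its partner Mtbp (-0.40 ± 0.054, adjusted p = 0.00023), Cdk2 (-0.29 ± 0.056, adjusted p = 0.0024) and Dbf4, the activating subunit of CDC7 (-0.31 ± 0.062, adjusted p = 0.0029). At the fork 12 of 19 fell, and the smallest p-values were those of Pold2, a subunit of polymerase delta (-0.41 ± 0.052, adjusted p = 0.00020), and Chaf1a, the chaperone that puts histones on new DNA (-0.38 ± 0.048, adjusted p = 0.00017).

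Nucleotide metabolism outside the 44 was mixed, with 10 of 18 genes that fell and 2 that rose. Cad, which starts pyrimidine synthesis (-0.36 ± 0.052, adjusted p = 0.00040), and Shmt1, which feeds folate carbon to thymidylate synthesis (-0.42 ± 0.064, adjusted p = 0.00051), fell. Named after their values were seen, Samhd1, which breaks dNTPs down, rose (0.81 ± 0.18, adjusted p = 0.0051), as did Tk2, the mitochondrial thymidine kinase (0.21 ± 0.051, adjusted p = 0.0086). Samhd1 was at 25.4, 33.98 and 36.1 in control, 27.2, 30.8 and 60.4 with Complex 1, 67.1, 45.95 and 69.3 with radiation and 64.3, 65.5 and 68.03 with both, in FPKM, and Complex 1 replicate 3 overlapped the irradiated range. Rrm2b, the reductase subunit induced by p53 after DNA damage, was at 3.81, 3.69 and 3.88 in control, 3.94, 3.56 and 3.30 with Complex 1, 3.68, 3.88 and 3.62 with radiation and 3.86, 3.91 and 3.70 with both, in FPKM. No change was detected for Rrm2b (0.007 ± 0.053, adjusted p = 0.94), and its sign turned in some settings. Dctd, the dCMP deaminase, was the 1 gene of the 72 called with Complex 1 alone, where it rose (0.53 ± 0.091, adjusted p = 0.017). In that comparison 0.717% of all tested genes rose and 0.0951% fell. With irradiation Dctd fell (-0.22 ± 0.065, adjusted p = 0.024).

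Of the other regulators 10 of 17 fell and 1 rose. E2f7, the repressor paired with E2f8, fell from 7.31 to 8.40 FPKM (median 7.99) without to 4.57 to 6.37 FPKM (median 5.58) with irradiation (-0.53 ± 0.051, adjusted p = 3.2e-05). Atad2, a chromatin ATPase and E2F target, fell from 15.7 to 17.4 FPKM (median 16.7) to 11.5 to 13.2 FPKM (median 11.6) (-0.51 ± 0.046, adjusted p = 2.7e-05). Rbl2, the pocket protein p130 of resting cells, named after its value was seen, was the gene that rose (0.26 ± 0.044, adjusted p = 0.0011).

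Mitotic genes and p53 targets were measured for comparison. In the irradiated libraries 19 of 20 mitotic genes fell, with a median of -0.37, including Mki67, the proliferation antigen (-0.52 ± 0.065, adjusted p = 0.00018), and Cdk1, the mitotic kinase (-0.36 ± 0.057, adjusted p = 0.00071). All 8 p53 target genes of arrest and feedback rose, with a median of 0.76, including Cdkn1a, which encodes the CDK inhibitor p21 (0.85 ± 0.093, adjusted p = 7.1e-05), and Ccng1 (1.24 ± 0.056, adjusted p = 6.9e-08). Between the combination and radiation alone, edgeR called 0 of the 20 mitotic genes, 7 had an unadjusted p under 0.05 (1411 of 13668 over all genes), and all 20 values were below 0 with a median of -0.17. For the 44 replication genes that median was -0.011. Whether the 2 lists differ there was not tested.

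Some markers of other cells rose with irradiation in the same libraries, where 13.3% of all tested genes rose. Of 10 macrophage markers 8 rose, and their summed FPKM was 1004 to 1193 in control, 1407 to 1564 with Complex 1, 2103 to 2282 with radiation and 2121 to 2257 with both. Of 5 tested NK cell markers 4 rose, with summed FPKM of 14.6 to 37.7, 28.9 to 48.6, 62.5 to 85.2 and 102 to 106 in the same order, and of 9 tested T cell markers 2 rose. Fibroblast markers rose in 3 of 8 cases, and 0 of 5 tested endothelial markers were called (1 had an unadjusted p under 0.05). Neutrophil markers rose in 2 of 6 tested cases, and their sum was highest in the groups given Complex 1, with 11.4 to 20 FPKM in control, 92.5 to 201 with Complex 1, 10.4 to 36.1 with radiation and 249 to 413 with both. None of the 5 B cell markers passed the filter, at a summed 0.49 to 3.22 FPKM. Krt18, the 1 tested carcinoma marker, was at 6.99, 7.72 and 4.83 in control, 6.41, 5.75 and 2.81 with Complex 1, 3.45, 4.77 and 4.48 with radiation and 2.90, 4.08 and 4.10 with both, in FPKM. It was not called in the irradiated libraries (-0.55 ± 0.19, adjusted p = 0.052) and fell in the combination against control (-0.87 ± 0.27, adjusted p = 0.038). The part of these cells in the fall of the replication genes was not tested.

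**Figure D4:**
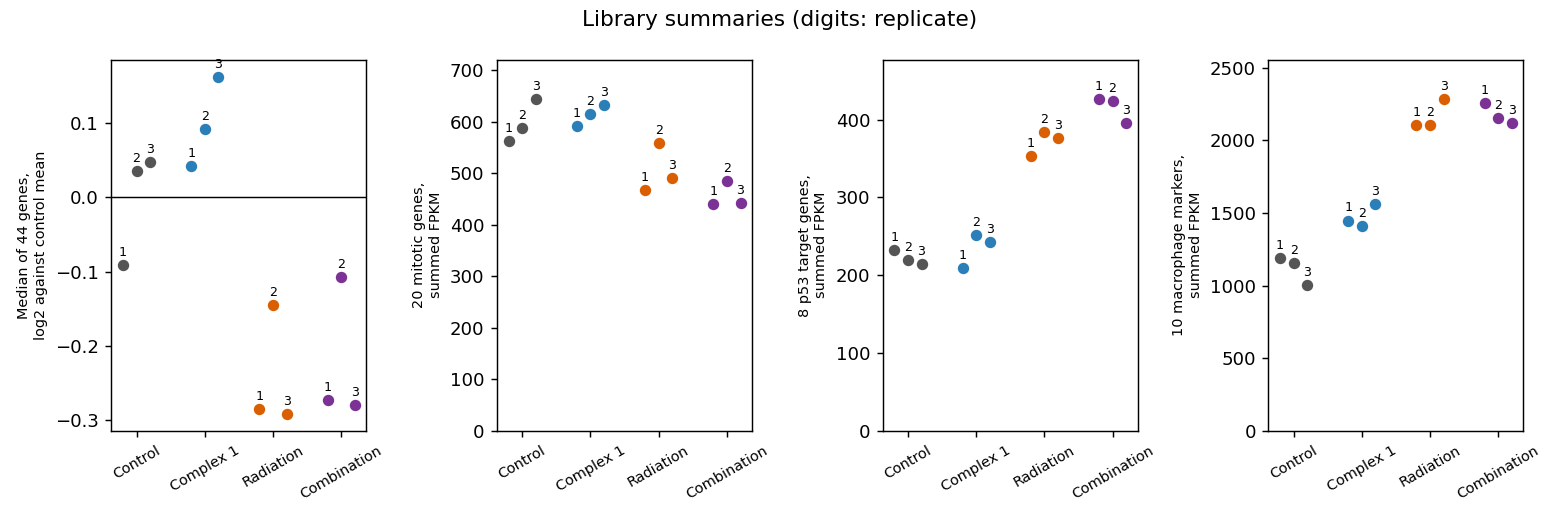
Library values of 4 gene sets, with 1 point per library, replicate numbers beside the points, and groups on the x axis. The panels show the median log2 difference of the 44 genes from the control mean, and the summed FPKM of 20 mitotic genes, 8 p53 targets and 10 macrophage markers. The 6 irradiated libraries lie below the others in the first 2 panels, at -0.292 to -0.107 in the first, and above them in the last 2.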

How the data were processed

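Total RNA of 12 CT26 tumour libraries was sequenced from an NEBNext Ultra RNA library, per the labels' protocols. The submitters' processing notes name STAR 2.5.3a, HTSeq 2.0.1, DESeq2 and the build mm39, without roles or parameters. The authors deposited 1 table with a raw read count and an FPKM value per gene and library. The deposited FPKM was recomputed from counts and lengths to within 0.005, so the FPKM carry no scaling other than depth and length. Entries without a symbol held 0.0579% to 0.0706% of counts and named no gene, and were left out.

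Counts were tested in R 4.3.3 with edgeR 4.0.16 (TMM scaling, glmQLFit and glmQLFTest, a mean per group over all 12 libraries, no block) for entries with at least 1 FPKM in at least 3 libraries. P-values were adjusted by the Benjamini-Hochberg method over the 13668 entries tested, and calls were made at 0.05. An SE is the log2 change divided by the square root of the F statistic. The scripts were tested on simulated data. Alternatives were DESeq2 1.42.0, limma 3.58.1 on log2(FPKM + 1) and log2(FPKM + 0.1), other scalings, no filter, the compared groups alone, a replicate block, and each library left out. Leaving out 3 libraries together was chosen after seeing the data.

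The 44 genes and the lists were chosen with earlier results of these data known. Genes named with all values are the 3 of smallest p per role for radiation, the gene of smallest p where a comparison called none, and those of highest and lowest level. Of other pathway genes, the 2 of smallest p per role, Rrm2b, Cdk2, Dbf4 and E2f7 were named. Further names were chosen after their values were seen. Rpa1, Samhd1 and the least firm calls belong to these. Promoters came from RefSeq (GRCm38.p6), and their coordinates are not on the scale of the mm39 gene coordinates. No 2 replicates agreed within sampling noise.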

Additional observations from a re-analysis of the deposited data

How the results depend on the processing

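For the fall with irradiation over all 6 irradiated libraries, every setting kept a count within 1.5 times of 35 genes, from 29 to 36 with single libraries left out. Counts for radiation against control ran from 5 to 18 with single libraries left out, and limma gave 7 with either pseudocount. The corresponding ranges were 9 to 18 for the combination against control and 13 to 27 for the combination against Complex 1. For Complex 1 against control, the combination against radiation and the interaction the count was 0 in every setting run.

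The median of the 44 genes between the combination and radiation changed sign, to 0.009 with library totals, 0.008 with limma at either pseudocount and 0.049 without 3 libraries. With single libraries left out it ran from -0.056 to 0.053. The interaction median was -0.015 without those 3 libraries. Rrm2b, not called in any setting, was at -0.007 without the filter and -0.041 without the 3 libraries, and at -0.017 to 0.045 with single libraries left out. The cause was not tested. Scaling by library totals moved the share of lower calls among all genes from 44.2% to 33.1% for radiation against control and from 45.9% to 31.3% for the combination against control.

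No sign of pairing by replicate number was seen. The 18 same-numbered pairs correlated at -0.185 to 0.144 (4 over 0.1), other pairs at -0.208 to 0.148. Of 12 libraries, 4 correlated best with their own number. Deviations from a mean of 3 libraries cannot exclude pairing. With a replicate block, counts were 15 for radiation against control, 19 for the combination against control, 30 for the combination against Complex 1, 33 for the irradiated libraries and 0 elsewhere. Precision is limited by 3 libraries a group and, for the least covered gene, by 90 counts.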

Other observations

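Ratios between partner genes within a library do not depend on how libraries are scaled, and were looked at after the changes were known. The share of all gene pairs whose ratios separate by irradiation was not computed. Rrm2b and Rrm2 are the alternative small subunits of ribonucleotide reductase. Their ratio in FPKM was 0.0482 to 0.0689 in the 6 libraries without irradiation and 0.0795 to 0.0891 in the 6 irradiated ones, with no overlap. No change was detected for Rrm2b, so this ratio restates the fall of Rrm2. The ratio of Pcna to Rfc1, the clamp and the large subunit of its loader, was 5.62 to 6 without and 4.54 to 5.17 with irradiation, again with no overlap. The ratio of Rrm2 to Rrm1, the reductase subunits, overlapped at 2.57 to 2.98 and 2.25 to 2.62. Cdt1 to Gmnn, the loader and its inhibitor, was 1.13 to 1.49 and 1.11 to 1.44. Ccne2 to Ccne1 was 0.995 to 1.22 and 0.820 to 1.04, Pola1 to Pola2 was 0.993 to 1.51 and 0.997 to 1.14, and Dut to Tyms was 3.07 to 5.16 and 2.77 to 3.71, all with overlap.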
